A study of Homo sapiens with 8 samples.

Results

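The 1136 regions described here were captured with 1 RNA oligo and overlap a region depleted with another. They are the rows of any captured list that overlap, by at least 1 bp, a row of another oligo's control list. A captured list holds regions with more recovered DNA with the oligo than without it, and a control list holds regions with less. The 1136 members come from 268071 captured regions over 3 oligos, and they overlap 1202 of 59923 control regions. Each log2 ratio belongs to a whole region, so the stretch that a captured and a control region share has no ratio of its own. A value given for the third oligo is that of its region overlapping the member, which need not reach the shared stretch. Because an overlap can involve several rows, the members make 1351 pairs of rows at 980 separate loci. The members were chosen by the direction of the deposited log2 ratios and by position, so ratios, widths and overlaps are given as a description without a test.

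DNA came from H1, a human embryonic stem cell line grown in FTDA medium. Naked genomic DNA, freed of RNA and sonicated to 200 to 300 bp, was mixed at 6 to 7 µg with 20 pmol of a biotin-labelled RNA oligo. The mixture was kept for 1 h at 37 °C with 50 mM KCl and MgCl2 at 5 mM. Streptavidin beads collected the DNA held by the RNA, and RNases released it. The groups were MEG3 TFR1, MEG3 TFR2, GATA6-AS TFR1 and no oligo, each with 2 libraries from independent experiments, 8 libraries in all. The no oligo group had the same DNA, buffer, beads and RNases. As the DNA was naked and freed of RNA, recovery was measured outside chromatin and without transcription. All 3 comparisons share the same no oligo libraries. Each region has a single log2 ratio of oligo over no oligo and no value per library, so the spread between libraries and the depth are unknown and no test over samples could be made.

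An RNA can lie in the major groove of a DNA duplex and pair with its purine-rich strand, giving an RNA-DNA triplex. MEG3 is a maternally expressed long noncoding RNA of an imprinted domain, and GATA6-AS is transcribed antisense to GATA6, which encodes a transcription factor of endoderm and heart. The letters TFR probably stand for a triplex-forming region.

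Sequence was at hand for promoter windows only, from 250 bases before to 50 bases after a gene's start (RefSeq, GRCh38.p14, the assembly whose primary chromosomes hg38 names). Of the members, 19 (1.67%) touched such a window, against 2.61% of all captured regions, and 17 promoters were involved. In 8 of the 17 the stretch shared by the captured and the control region reached into the window. Of these 8, LINC01914 and LOC124903328, with 50 bases of the shared stretch each, and KCNIP1, with 36, are not shown. The windows below are shown because they hold bases that lie in both a captured region of 1 oligo and a control region of another. Each ratio belongs to a whole region, so whether these bases were themselves captured and depleted was not tested. The windows are written 5′ to 3′ on the gene's strand. Capitals mark the bases in both regions (for SYT3, those of MEG3 TFR2 and GATA6-AS TFR1).
LINC01596 (chr4:189881265-189881564, plus strand): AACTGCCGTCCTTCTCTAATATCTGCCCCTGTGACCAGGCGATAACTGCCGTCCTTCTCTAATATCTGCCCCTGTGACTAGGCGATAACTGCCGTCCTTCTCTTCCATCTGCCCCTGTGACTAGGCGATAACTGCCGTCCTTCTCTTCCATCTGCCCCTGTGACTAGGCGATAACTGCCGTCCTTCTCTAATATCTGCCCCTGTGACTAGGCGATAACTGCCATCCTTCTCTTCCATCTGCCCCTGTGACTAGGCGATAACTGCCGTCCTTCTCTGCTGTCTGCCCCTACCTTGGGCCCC
LRP1-AS (chr12:57147570-57147869, minus strand): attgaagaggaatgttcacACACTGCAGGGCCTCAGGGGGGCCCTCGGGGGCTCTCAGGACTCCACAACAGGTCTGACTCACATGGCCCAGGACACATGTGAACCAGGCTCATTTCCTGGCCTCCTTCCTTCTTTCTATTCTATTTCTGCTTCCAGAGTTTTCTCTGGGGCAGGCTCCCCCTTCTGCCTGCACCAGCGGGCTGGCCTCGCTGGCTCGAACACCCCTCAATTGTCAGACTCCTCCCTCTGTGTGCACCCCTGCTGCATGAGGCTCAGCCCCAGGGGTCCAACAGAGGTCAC
SUN5 (chr20:33004384-33004683, minus strand): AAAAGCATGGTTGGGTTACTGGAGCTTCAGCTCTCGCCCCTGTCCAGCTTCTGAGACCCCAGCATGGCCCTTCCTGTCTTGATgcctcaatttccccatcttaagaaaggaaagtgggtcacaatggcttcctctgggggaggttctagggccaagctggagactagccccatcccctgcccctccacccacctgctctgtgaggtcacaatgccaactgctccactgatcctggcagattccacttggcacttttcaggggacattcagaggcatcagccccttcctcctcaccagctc
SYT3 (chr19:50637896-50638195, minus strand): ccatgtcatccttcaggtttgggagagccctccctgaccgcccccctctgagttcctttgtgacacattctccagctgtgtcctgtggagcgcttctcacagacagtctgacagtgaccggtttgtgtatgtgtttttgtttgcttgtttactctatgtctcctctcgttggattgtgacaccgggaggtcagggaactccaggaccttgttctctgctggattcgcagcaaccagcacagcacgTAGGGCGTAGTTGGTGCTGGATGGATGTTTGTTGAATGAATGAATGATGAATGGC
BEST2 (chr19:12751541-12751840, plus strand): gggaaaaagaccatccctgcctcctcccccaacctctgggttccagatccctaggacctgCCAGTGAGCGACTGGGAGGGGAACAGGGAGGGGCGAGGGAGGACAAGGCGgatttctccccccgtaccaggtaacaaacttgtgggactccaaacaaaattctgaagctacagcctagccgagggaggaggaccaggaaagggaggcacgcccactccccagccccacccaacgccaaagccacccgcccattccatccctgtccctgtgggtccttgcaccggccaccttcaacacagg

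The LINC01596 window, at the start of a long noncoding RNA gene, lay wholly inside the shared stretch. MEG3 TFR1 captured it in a region from 189881201 to 189881700 on chromosome 4, at a log2 ratio of 1.53 (2.88-fold). MEG3 TFR2 listed 189881251 to 189881600 as control, at -0.99 (1.98-fold lower than no oligo), and GATA6-AS TFR1 did not list it. The printed bases repeat with a period of 43 bases: 90.3% of the bases equal the base 43 positions on. Of the 35116 promoter windows, 0.0712% matched themselves at least as well at any period from 20 to 100 bases.

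LRP1-AS is antisense to LRP1, the gene of a lipoprotein receptor. Its window shared 281 bases with both regions. The captured log2 ratio was 0.59 with MEG3 TFR1 and the control value -1.05 with GATA6-AS TFR1, while MEG3 TFR2 had a captured region at 0.79 that overlapped the MEG3 TFR1 region outside the window. SYT3, a synaptotagmin gene of vesicle release, was captured with both MEG3 oligos, at 1.20 with TFR1 and 0.95 with TFR2, and GATA6-AS TFR1 had a control region there at -1.22. SUN5, a gene of the sperm nuclear envelope, split the MEG3 oligos, with 1.11 for MEG3 TFR2 and -1.01 for MEG3 TFR1. BEST2, a bestrophin chloride channel gene, had 1.39 with GATA6-AS TFR1 and -0.98 with MEG3 TFR1. No region of the third oligo was listed at SUN5 or BEST2.

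Runs of purines, or of pyrimidines and so of purines on the other strand, were counted in the same windows. A run of at least 15 bases, of A and G only or of C and T only, was in 4 of the 17 promoters at a member (23.5%), beside 19.9% of all promoter windows. At 20 bases or more it was in 1 of the 17 (5.88%), beside 6.03% of all. That promoter belongs to TMEM94, a transmembrane protein gene, and is shown with its run in capitals, since purine tracts are the duplex sequences that triplexes are known to need.
TMEM94 (chr17:75476287-75476586, plus strand): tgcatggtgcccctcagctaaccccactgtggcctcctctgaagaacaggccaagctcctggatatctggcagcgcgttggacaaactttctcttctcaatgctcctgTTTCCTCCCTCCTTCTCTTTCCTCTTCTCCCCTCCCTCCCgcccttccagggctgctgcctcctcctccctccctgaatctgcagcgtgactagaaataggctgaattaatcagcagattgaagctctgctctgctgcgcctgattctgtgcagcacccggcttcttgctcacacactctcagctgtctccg
The run is 40 pyrimidines long, a length reached in 0.342% of all windows. It lay inside the captured region of MEG3 TFR1 (75476051 to 75476800, log2 ratio 1.28). A captured region of MEG3 TFR2 (1.16) overlapped that region but not the window. The GATA6-AS TFR1 control region, at -1.75, shared only the last 50 bp of the MEG3 TFR1 region and did not reach the window. Of the 8 promoters that a shared stretch reached, 1 had a run of at least 15 bases. With 17 promoters, a share of runs near that of all windows is not a result about the members.

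The first comparison counts the members of each ordered pair of oligos. MEG3 TFR1 regions overlapping a GATA6-AS TFR1 control region were the most numerous, 513 of 89739 captured regions. That is 0.572% (95% Wilson interval 0.524% to 0.623%, counting error only). MEG3 TFR2 regions overlapping a GATA6-AS TFR1 control region came next, 282 of 73546 (0.383%, 0.341% to 0.431%). Of 104786 GATA6-AS TFR1 regions, 146 overlapped a MEG3 TFR1 control region (0.139%) and 121 a MEG3 TFR2 control region (0.115%). Between the MEG3 oligos, 146 MEG3 TFR1 regions lay on MEG3 TFR2 control regions (0.163%) and 109 MEG3 TFR2 regions on MEG3 TFR1 control regions (0.148%).

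The control lists differ in length. GATA6-AS TFR1 had 36330 control regions, MEG3 TFR1 had 12649 and MEG3 TFR2 had 10944. As a share of the control list overlapped, the pairs lay closer together, from 0.779% of GATA6-AS TFR1 control regions under MEG3 TFR2 captures to 1.42% of them under MEG3 TFR1 captures. No captured region overlapped a control region of its own oligo.

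Overlaps ranged from a touch to whole regions. The lists lie on a grid of 50 bp, so the smallest possible overlap is 50 bp, and 445 of the 1351 pairs (32.9%) had exactly that. A further 434 (32.1%) shared 100 or 150 bp, and 472 (34.9%) shared 200 bp or more. Just outside the rule, 764 pairs abutted with no shared base and 491 stood 50 bp apart. These counts leave out captured regions that were members for the same ordered oligo pair. In 488 pairs (36.1%) the shared stretch was at least 0.5 of the shorter region, and in 199 (14.7%) 1 region lay wholly inside the other. On either side of the rule's limit, for MEG3 TFR1 against GATA6-AS TFR1, the 163 pairs sharing 50 bp had median log2 ratios of 1.15 captured and -1.27 control, and the 229 abutting pairs 1.18 and -1.39.

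**Figure D1:**
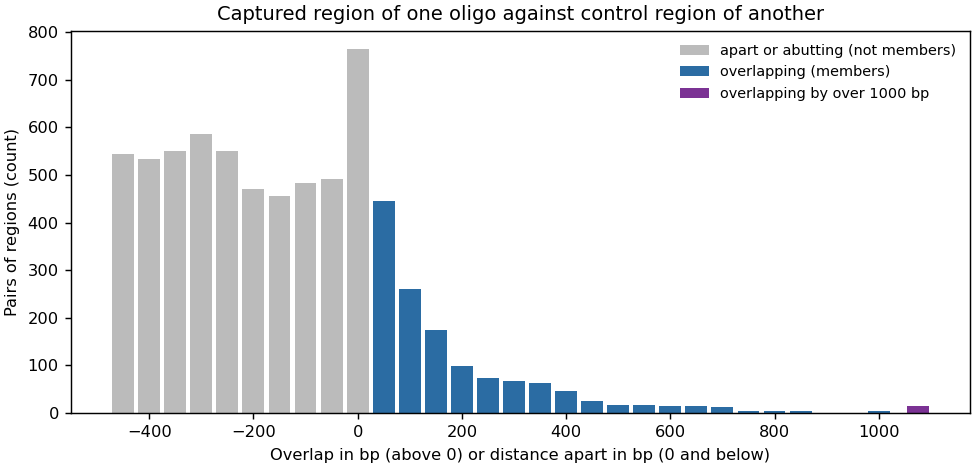
Number of pairs of a captured region of 1 oligo and a control region of another (vertical axis, count) by overlap in bp or, at 0 and below, by distance apart in bp (horizontal axis). Grey bars are pairs outside the rule, 764 of them abutting, and blue and purple bars are members, which fall from 445 pairs at 50 bp to 15 pairs sharing over 1000 bp. Grey bars leave out captured regions that are members for the same ordered oligo pair.

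The members were weaker and wider than the lists they came from. The median captured log2 ratio was 1.00 over the 1136 members and 1.39 over all captured regions, and by pair it ran from 0.89 to 1.02. Only 10 members (0.880%) reached a log2 ratio of 2, against 12.7% of all captured regions, and the highest was 2.34, at SLC8A2. On the control side, pair medians ran from -0.95 (MEG3 TFR1 captured, MEG3 TFR2 control) to -1.22 (MEG3 TFR2 captured, GATA6-AS TFR1 control), beside -1.46 to -1.57 for whole control lists. Median width was 500 bp for members and 350 bp for all captured regions. A wider region has more bases with which to meet another, so the rule itself bears on width.

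The longer the shared stretch, the smaller were both ratios. Pairs sharing 50 bp had medians of 1.14 captured and -1.25 control. For 200 bp or more the medians were 0.77 and -0.93, and the 18 pairs sharing 1000 bp or more had 0.59 and -0.64. Those 18 pairs had median widths of 1425 bp captured and 1925 bp control.

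**Figure D2:**
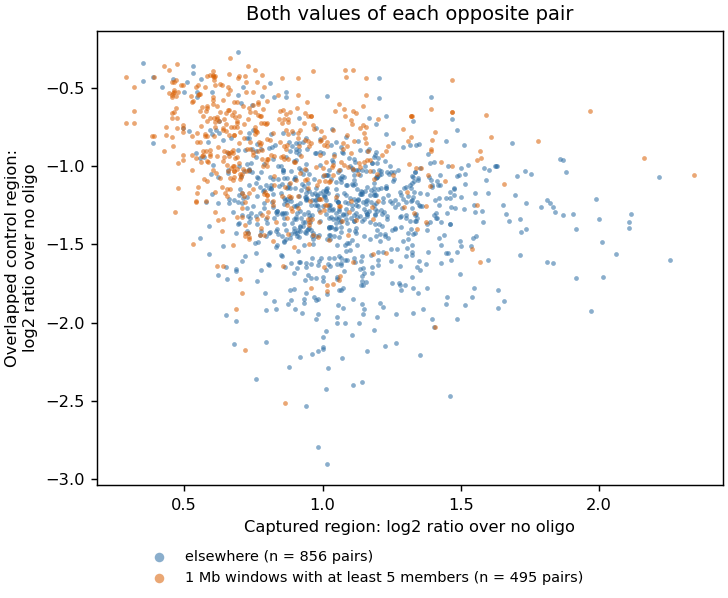
Each point is 1 of the 1351 pairs, with the log2 ratio of the captured region on the horizontal axis and that of the overlapped control region on the vertical axis, both over no oligo. Orange points, the 495 pairs in crowded 1 Mb windows, gather nearer to 0 on both axes than the 856 blue points elsewhere.

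In each pair the 3 most opposed members met over 50 to 150 bp. The sum of the sizes of both log2 ratios was used to rank them, and since the ratios belong to different stretches of DNA the sum is a ranking and not a fold change between oligos. The highest sum was 3.93, inside FARP2 (chromosome 2, captured 241485551 to 241486000). MEG3 TFR1 stood there at 1.46, MEG3 TFR2 at -2.47 over 241485901 to 241486200, and GATA6-AS TFR1 also at -1.21, and the shared stretch was 100 bp. For the same oligos in that order, GSTM3, a glutathione transferase gene, had 2.01 and -1.48 in regions sharing 50 bp, 612 bp outside the gene. HIC1, a transcriptional repressor gene that overlaps SMG6, had 1.11 with MEG3 TFR1 and -1.31 with MEG3 TFR2, and GATA6-AS TFR1 listed both a captured (1.71) and a control region (-1.35) under the same MEG3 TFR1 region. MEG3 TFR2 did so as well, with a captured region at 1.86.

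MEG3 TFR1 against GATA6-AS TFR1 had high sums at FAM3D, a secreted cytokine-like protein gene, which stood at 1.01 and -2.91, the lowest control value of any member. Another region lay 109566 bp from SALL1, the nearest protein-coding gene, at 2.26 and -1.60. At gene edges, meaning no more than 1 kb from where a protein-coding gene starts or ends, the pair's highest sums were at PTPRS, a receptor phosphatase of synapses (1.16 and -1.74), and ARHGAP40, a GTPase-activating protein gene (1.27 and -1.53). All 4 shared 50 bp, and MEG3 TFR2 listed none of them.

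MEG3 TFR2 against MEG3 TFR1 was led by LIMD1, a LIM-domain scaffold gene (2.11 and -1.39), KHNYN, a cofactor of antiviral RNA decay (1.83 and -1.62), and RAB6A, a Golgi GTPase gene (1.41 and -2.03). GATA6-AS TFR1 had control values at all 3, of -1.35, -1.26 and -0.78, and at LIMD1 also a captured value of 1.55. MEG3 TFR2 against GATA6-AS TFR1 was led by regions between genes: 72232 bp from SP4 (0.98 and -2.79), 10146 bp from DHX15 (1.92 and -1.72) and 2617 bp from SDHAF2 (1.66 and -1.86). At the edge of ESR2, the oestrogen receptor beta gene, and of its neighbour SYNE2, it had 1.33 and -1.78. MEG3 TFR1 also had control values at the regions near SP4 (-1.94) and DHX15 (-1.40), and was not listed at those near SDHAF2 and ESR2.

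GATA6-AS TFR1 against MEG3 TFR1 was led by a region in LOC101927045 on chromosome 14 (0.94 and -2.54), where the 150 bp control region lay wholly inside the captured region. UBE2H, a ubiquitin-conjugating enzyme gene (1.01 and -2.42), and RAB33B, a Golgi GTPase gene of autophagy (1.63 and -1.79), followed. At gene edges the highest were TPTE (1.06 and -1.70) and NOC4L, a ribosome assembly gene (1.06 and -1.32). MEG3 TFR2 also had control values at LOC101927045 (-1.65) and UBE2H (-1.14), and was not listed at RAB33B, TPTE or NOC4L. GATA6-AS TFR1 against MEG3 TFR2 was led by SLC8A2, a sodium-calcium exchanger gene (2.34 and -1.05), the edge of ABHD11, a mitochondrial hydrolase gene (1.47 and -1.60), and ADCYAP1R1, the receptor gene of the neuropeptide PACAP (1.71 and -1.34). The edge of ATG2A, a lipid transfer gene of autophagy, had 1.18 and -1.68. MEG3 TFR1 also had a control value at ADCYAP1R1 (-1.57), and was not listed at SLC8A2 or at the edges of ABHD11 and ATG2A.

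Of the 1136 members, 181 overlapped control regions of both other oligos: 97 of MEG3 TFR1, 51 of MEG3 TFR2 and 33 of GATA6-AS TFR1. The highest captured values among them were at LIMD1, at the region near DHX15 and at KHNYN, all of MEG3 TFR2, with the 3 oligos at 2.11, -1.39 and -1.35, then 1.92, -1.40 and -1.72, then 1.83, -1.62 and -1.26, in the order MEG3 TFR2, MEG3 TFR1, GATA6-AS TFR1. Conversely, 113 control regions were overlapped by captured regions of both other oligos: 57 of GATA6-AS TFR1, 30 of MEG3 TFR1 and 26 of MEG3 TFR2. Control regions of all comparisons draw on the same no oligo libraries, so these counts are not independent of each other. Over all members of a pair, the third oligo was listed in neither direction at 28 of 146 (MEG3 TFR1 captured, MEG3 TFR2 control) and at up to 350 of 513 (MEG3 TFR1 captured, GATA6-AS TFR1 control).

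Some members crowded into a few stretches of the genome. In 29 windows of 1 Mb with at least 5 members each, a threshold chosen after seeing the members, lay 368 of the 1136 (32.4%), beside 2.65% of all captured regions. The windows held 0.400 control regions per captured region, against 0.224 over all lists. As the windows were picked by their count of members, and every member overlaps a control region, both contrasts follow in part from that choice. Members per 1000 captured regions were 35.8 on chromosome 21 and 10.3 on chromosome 22, and from 2.09 (chromosome 13) to 5.16 (chromosome 17) on the other autosomes. A member needs a control region to meet, so the number of control regions bears on these rates. Chromosome 21 had 1459 control regions beside 2903 captured, and 116 of the 1459 were overlapped. Chromosome 22 had 1563 beside 8774, with 90 overlapped. Over all lists 1202 of 59923 control regions were overlapped.

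**Figure D3:**
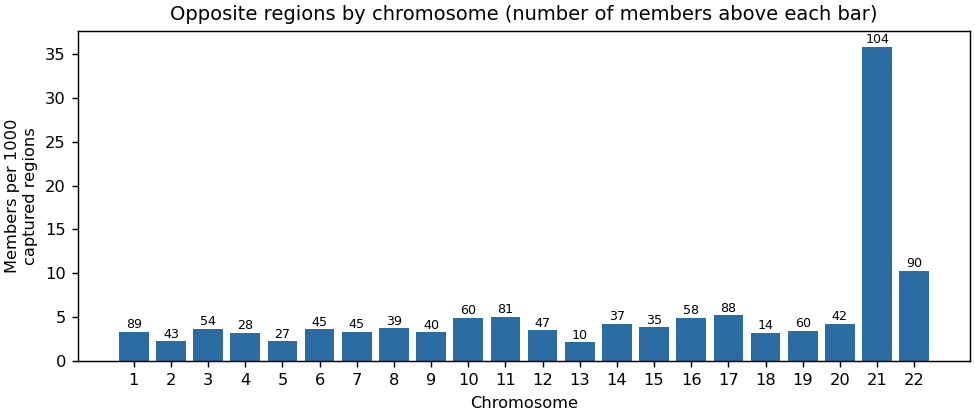
Members per 1000 captured regions (bars, vertical axis) on each autosome (horizontal axis), with the number of members above each bar. Chromosome 21, with 104 members, stands at 35.8 and chromosome 22, with 90, at 10.3, while the other 20 autosomes lie between 2.09 and 5.16. The rates are not adjusted for control regions, whose number per captured region differs between chromosomes.

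Members in the crowded windows had a median captured log2 ratio of 0.82 and a median width of 600 bp, against 1.07 and 450 bp elsewhere. The densest window, 10 to 11 Mb on chromosome 21, held 66 members among 126 captured regions (52.4%) and 499 control regions. It carries BAGE2, of a duplicated family of tumour antigens, and TPTE, the gene of a phosphatase of the testis. Inside BAGE2 a MEG3 TFR1 region (10430751 to 10431950) stood at 0.29 and lay wholly within control regions of MEG3 TFR2 (-0.43) and GATA6-AS TFR1 (-0.72). Inside TPTE a MEG3 TFR1 region (10540251 to 10540900) stood at 0.62 against -1.34 with GATA6-AS TFR1 and -0.88 with MEG3 TFR2.

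Chromosome 22 had 36 members at 11 to 12 Mb among 118 captured regions and 16 at 10 to 11 Mb among 31. On chromosome 1, 29 members lay at 16 to 17 Mb around NBPF1, of the neuroblastoma breakpoint family, and CROCCP2, a pseudogene of a ciliary rootlet gene. In CROCCP2, captured regions of MEG3 TFR1 (0.44) and GATA6-AS TFR1 (0.46) each shared 800 bp with a MEG3 TFR2 control region (-0.53). On chromosome 10, 25 members lay at 46 to 47 Mb, 9 of them in or within 1 kb of GPRIN2, a gene of neurite growth. There captured regions of MEG3 TFR2 (0.95) and MEG3 TFR1 (0.76) overlapped a GATA6-AS TFR1 control region (-0.59).

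KANSL1, the gene of a scaffold of the NSL histone acetyltransferase complex, had 15 members in or within 1 kb of it, the most of any protein-coding gene, among 55 captured regions. Its neighbour LRRC37A, of a duplicated leucine-rich repeat family, had 9 among 22, and DUSP22, a phosphatase gene near the start of chromosome 6, had 13 among 35. In KANSL1 a GATA6-AS TFR1 region at 0.74 (46158251 to 46159000) shared 650 bp with a MEG3 TFR1 control region at -0.85, and MEG3 TFR2 had a captured region there at 0.77. Further along, a MEG3 TFR1 region at 0.79 lay within a MEG3 TFR2 control region at -0.73 and met a GATA6-AS TFR1 control region at -0.97. In DUSP22, captured regions of MEG3 TFR2 (1.44) and MEG3 TFR1 (0.99) overlapped a GATA6-AS TFR1 control region (-1.10). Another stretch of 600 bp lay in both a GATA6-AS TFR1 captured region (0.87) and a MEG3 TFR1 control region (-0.86). Each of the 3 oligos had both captured and control regions in the mapped stretch of KANSL1.

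The longest overlap of all lay in MUC6, a gastric mucin gene whose coding DNA holds long tandem repeats. GATA6-AS TFR1 captured 1015501 to 1019200 on chromosome 11 at 1.39, and MEG3 TFR1 had a control region from 1016801 to 1018600 at -0.56, all 1800 bp of it inside. MEG3 TFR2 captured regions reached into both ends of that control region, at 0.87 and 0.83. MEG3 TFR1 itself captured the DNA beside it, 1015301 to 1016500, at 1.44.

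**Figure D4:**
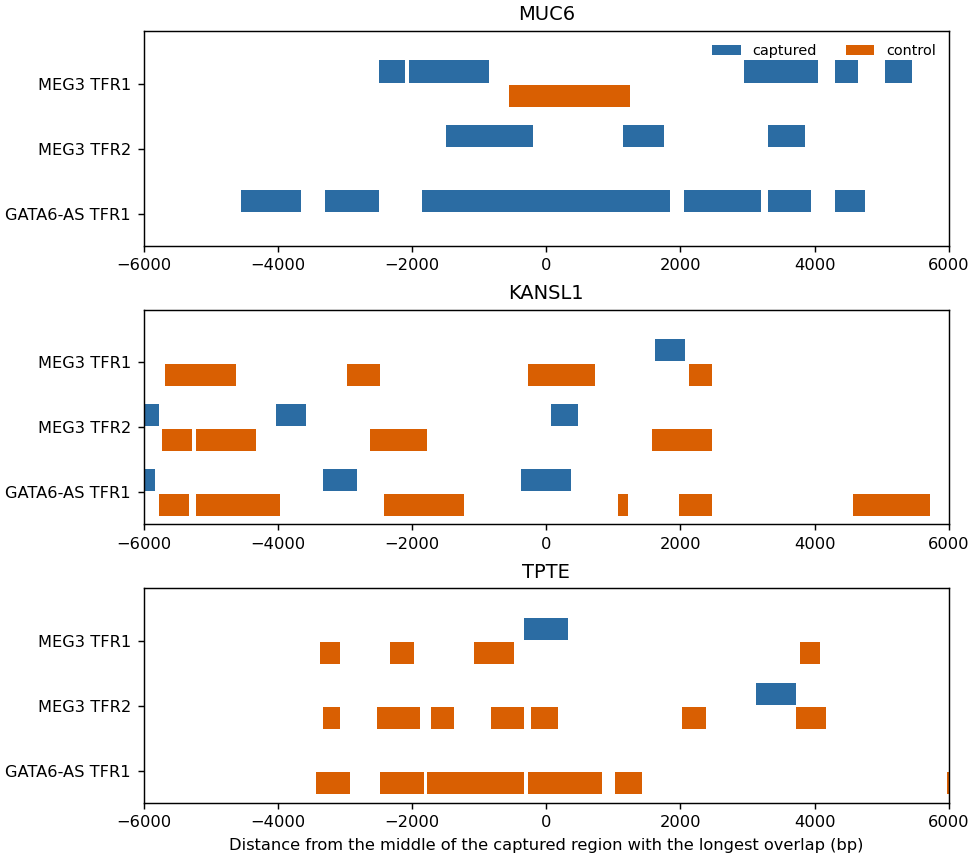
Captured (blue) and control (orange) regions of the 3 oligos within 6000 bp of the longest opposite overlap in MUC6, KANSL1 and TPTE, by distance in bp from the middle of the captured region. In MUC6 a single control region, of MEG3 TFR1 at -0.56, lies under a GATA6-AS TFR1 capture, whereas KANSL1 and TPTE show control regions of every oligo, with captured regions between them.

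Members often had a control region of their own oligo close by. A control region of the capturing oligo itself lay within 500 bp of 33.6% of MEG3 TFR1 members on MEG3 TFR2 control regions. The share was 17.3% for those on GATA6-AS TFR1 control regions, beside 0.722% of all MEG3 TFR1 captured regions. For MEG3 TFR2 members the shares were 25.7% (MEG3 TFR1 control) and 16.7% (GATA6-AS TFR1 control), beside 0.579%. For GATA6-AS TFR1 members they were 37.7% (MEG3 TFR1 control) and 43.0% (MEG3 TFR2 control), beside 1.92%. The control lists share the no oligo libraries and each member sits on another oligo's control region, so a control region of its own oligo nearby is not independent of the rule. Members also lay near other members: from 12.8% to 33.6% of a pair's members were within 10 kb of another member of that pair.

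The place of members relative to genes was compared with that of all captured and all control regions. Midpoints at a gene edge made 4.67% of members (53, 95% Wilson interval 3.58% to 6.05%), 7.8% of all captured regions and 2.82% of all control regions. Inside protein-coding genes the shares were 43.1%, 51.4% and 48.4%. Between genes they were 37.1%, 30.3% and 36.6%. Pseudogenes held 6.51% of member midpoints, against 1.49% of captured and 1.88% of control midpoints. Within 2 Mb of a stretch of over 1 Mb that is empty in every list lay 15.7% of members, 1.12% of captured and 5.92% of control regions. No test was made of these differences, and regions are not replicates.

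The same shares were taken outside the crowded windows. Without them the 768 other members had 5.21% of midpoints at gene edges, 51.4% inside protein-coding genes and 30.7% between genes. Their shares in pseudogenes, 2.99%, and near empty stretches, 2.73%, were lower than with the windows, but above the 1.49% and 1.12% of all captured regions. The edge share stayed below the 7.8% of all captured regions. These shares of all captured regions still include the crowded windows. The edge share differed by capturing oligo: 7.69% of GATA6-AS TFR1 members, beside 10.9% of all its captured regions, 4.63% of MEG3 TFR1 members beside 5.99%, and 2.65% of MEG3 TFR2 members beside 5.55%.

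A member lay inside or within 1 kb of 455 of the 19974 protein-coding genes (2.28%). Of 9 gene lists chosen with earlier results of these data known, 5 had any such gene. The list of synaptic adhesion and ion channel genes had 3 of 30: PTPRS, the calcium channel gene CACNA1C (1.05 with MEG3 TFR1, -1.72 with GATA6-AS TFR1) and the splicing regulator RBFOX1 (1.06 and -1.57 in the same order). These genes are long, and length was not matched. HOX genes set position along the body, and 2 of 39 had a member: HOXB6 (1.15 with MEG3 TFR2, -1.76 with GATA6-AS TFR1) and HOXA3 (1.38 with MEG3 TFR1, -1.18 with GATA6-AS TFR1). All 39 had a captured region of some oligo.

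Of 46 TGF-beta and BMP genes, 2 had a member. BMP7, a ligand gene, had captured regions of MEG3 TFR1 (1.16) and MEG3 TFR2 (1.88) and a control region of GATA6-AS TFR1 (-1.22). LTBP2, which encodes a latent TGF-beta binding protein family member, had 0.93 with GATA6-AS TFR1 and -1.36 with MEG3 TFR2. MYC was the single pluripotency gene of 25 in the gene table, at 0.93 with MEG3 TFR2 and -1.05 with MEG3 TFR1. The 350 bp control region lay wholly inside the captured region. RPS19 was the single ribosomal protein gene of 40, at 0.68 and -1.29 for the same oligos. None of 24 cardiac, 24 neuroectoderm, 25 endoderm and mesoderm and 29 imprinted genes had a member, MEG3 and GATA6 among them. At a share of 2.28%, lists of this size hold few genes with a member in any case, and these counts are not a result about the lists.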

How the data were processed

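The data are 6 deposited lists of regions on hg38, a captured and a control list for each of 3 oligos, with 1 log2 ratio per region that the authors computed over both libraries of a group. The submitters' processing notes name FastQC and BWA (0.7.15-r1140). How libraries were scaled and which caller made the lists, with what settings, is not given in the sources used here. That the deposited values are log2 was read from them: raising 2 to a value's size gave a quotient of integers (divisor up to 400, tolerance 1e-08) for 98.2% to 99.96% of the regions in a list.

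The lists were used as deposited, 327994 regions, with coordinates printed from 1. Overlap was at least 1 bp. Genes came from the RefSeq table of GRCh38.p14, matched by position, with classes by region midpoint. No genome sequence was used here, so the planned GC and purine counts over all members became counts in promoter windows. Regions named are, for each pair, the 3 with the largest sum of ratios and the 2 largest at gene edges, 3 regions of 2 pairs, and up to 3 genes of each list; 1 of these regions is not reported here. Regions in crowded windows, LZTR1, ZNF91, MIR199A1, the mucin genes and gene copies such as MTATP6P1 and DUX4L50 were picked after their values were seen. Members and lists were chosen with earlier results of these data known. Other settings tried were an overlap of 0.5 of the shorter region, the 50% of regions with the largest ratios, joining within 200 bp, edges of 5 kb and autosomes alone. The overlap search was tested on simulated lists. Python 3.11.15, numpy 2.4.6, pandas 2.3.3 and scipy 1.17.1 were used. Wilson intervals cover counting error only.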

Additional observations from a re-analysis of the deposited data

How the results depend on the processing

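The number of members depended on how overlap and list were set. Requiring that the shorter region be covered to 0.5 or more, 434 of 1136 members were left: 58 and 200 for MEG3 TFR1 against MEG3 TFR2 and GATA6-AS TFR1, 44 and 89 for MEG3 TFR2 against MEG3 TFR1 and GATA6-AS TFR1, and 60 and 34 for GATA6-AS TFR1 against MEG3 TFR1 and MEG3 TFR2. Their gene edge share was 3.46%, the share inside protein-coding genes 38.5%, in pseudogenes 10.1% and near empty stretches 24.9%, with a median log2 ratio of 0.86 and a median width of 600 bp. Among the 50% of regions with the largest ratios only 32 members were left, by construction from lists in which members are weak: 4, 11, 1, 5, 7 and 4 in the same order. Their shares were 9.38% at gene edges, 62.5% inside protein-coding genes, 25.0% between genes, 3.13% in pseudogenes and 0% near empty stretches, with a median log2 ratio of 1.53. Joining regions within 200 bp left 1122 members and moved no value listed here beyond its 95% interval, and keeping autosomes alone removed none. With edges of 5 kb, 22.1% of members and 25.1% of all captured regions lay at an edge, and with genes extended by 5 kb, 4 HOX genes, 2 pluripotency genes and 573 protein-coding genes in all had a member.

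After the data were seen, members were also described without the crowded windows and without chromosomes 21 and 22. Without the windows the shares were 51.4% inside protein-coding genes, 30.7% between genes, 2.99% in pseudogenes and 2.73% near empty stretches, with a median log2 ratio of 1.07 and a median width of 450 bp. Without the chromosomes, 942 members had 48.6% inside protein-coding genes, 31.2% between genes and 3.29% near empty stretches, and a median log2 ratio of 1.02. No paired analysis was possible because the lists hold no value per library, and for the same reason no library could be left out. The error of a ratio is unknown, and ratios near 0 at wide regions cannot be told from spread between libraries here.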

Other observations

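A few further loci were picked after their values were seen. Whether their regions hold repeated DNA was not examined. MTATP6P1, a nuclear copy of the mitochondrial ATP synthase subunit 6 gene near the start of chromosome 1, was captured with GATA6-AS TFR1 (633801 to 634350, log2 ratio 1.33) and MEG3 TFR2 (0.63). MEG3 TFR1 had a control region from 633851 to 634300 at -0.71. At DUX4L50, a copy of the DUX4 homeobox gene, captured regions of MEG3 TFR1 (1.02) and GATA6-AS TFR1 (0.78) held a 650 bp MEG3 TFR2 control region (-0.55). MUC3A, a membrane mucin gene, was captured with MEG3 TFR1 (0.71) and MEG3 TFR2 (1.15) over a GATA6-AS TFR1 control region at -0.82. Elsewhere in MUC3A the MEG3 oligos were opposed: a MEG3 TFR1 captured region at 0.89 shared 300 bp with a MEG3 TFR2 control region at -1.27. GATA6-AS TFR1 had a captured region there at 0.48. ZNF91, a zinc finger gene that represses retroelements, had a MEG3 TFR1 region of 1700 bp at 2.06 around a 200 bp GATA6-AS TFR1 control region at -1.56.

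One microRNA hairpin lay in a member. MIR199A1, inside DNM2 on chromosome 19 (10817426 to 10817496, minus strand), fell in a GATA6-AS TFR1 captured region from 10815901 to 10818250 at 0.66, and in a MEG3 TFR2 captured region at 1.23. The MEG3 TFR1 control region inside it, 10816651 to 10817100 at -0.91, ended before the hairpin. The mature sequences are given from RefSeq with the seed, bases 2 to 8, in capitals.
hsa-miR-199a-5p: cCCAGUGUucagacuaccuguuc
hsa-miR-199a-3p: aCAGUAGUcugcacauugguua

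At LZTR1, an adaptor gene of a ubiquitin ligase, GATA6-AS TFR1 captured regions at 1.41 and 1.34 on either side of a MEG3 TFR1 control region at -1.33, and both reached into it. MEG3 TFR2 reached into it as well, at 1.02.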
